A study of Mus musculus with 20 samples.

Results

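The Ly6 genes Ly6a, Ly6c1, Ly6c2, Ly6d and Ly6e, 5 of the 31053 genes counted, were followed across B, plasma, T and myeloid cells. The cells came from mouse models of chronic lymphocytic leukaemia (CLL) and its progression. The members were chosen by name. Droplet-based single-cell RNA-sequencing (scRNA-seq) was run on live cells, not sorted by type, of 13 mice, labelled C57BL/6N, that had reached the criteria for removal from the colony. Eµ-PRMT5 mice (5 spleens) carried a human PRMT5 cDNA, Eµ-TCL1 mice (4 spleens and 3 sub-mandibular lymph nodes) a human TCL1 cDNA, and Eµ-PRMT5/TCL1 mice (4 spleens and 4 such lymph nodes) carried both. Each transgene was driven by a VH promoter and the immunoglobulin heavy chain Eµ enhancer, which are active in B cells, so that the T and myeloid cells described here came from transgenic animals without being the cells the transgene is built for. PRMT5 is an arginine methyltransferase and TCL1 an oncogene. The study describes varied expansions of blood cells in Eµ-PRMT5 mice, only some of them CLL-like. It also describes a change to large cells in lymph nodes of some Eµ-PRMT5/TCL1 mice, so the disease was not the same in all mice. All mice carried at least 1 transgene, and no wild type group was analysed here. The mouse of Eµ-PRMT5/TCL1 spleen 1 and lymph node 2 is labelled M0955-RT, and the study shortens Richter's transformation to RT. Whether the label means this was not known. Eµ-PRMT5 spleen 3 is labelled E4474, a name the study lists among its founders. Both mice were treated as replicates. The labels give no ages. The study reports the longest median survival for Eµ-PRMT5 and the shortest for Eµ-PRMT5/TCL1 mice, so ages at removal may have differed. A difference of age between genotypes could not be told apart from genotype. The comparisons ask how the Ly6 genes differ between genotypes, between spleen and lymph node of the 7 mice that gave both, and between cell classes of the same spleen.

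Ly6 proteins are small cell surface proteins of the Ly6/uPAR family. They share a cysteine-rich fold and are held in the membrane by a glycosylphosphatidylinositol (GPI) lipid anchor. Antibodies to them have long been used to tell blood cells apart. Ly6a is the stem cell antigen of mouse blood progenitors, is also present on activated lymphocytes and is induced by interferons. Ly6c1 and Ly6c2 encode the Ly6C antigens of monocytes, memory CD8 T cells and plasma cells. Ly6d marks lymphoid progenitors that have committed to the B lineage, and Ly6e, the thymic shared antigen, is broadly present on lymphocytes and is also induced by interferons.

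The 5 genes lie within 349915 bases of chromosome 15 (mouse genome GRCm38, GENCODE vM21 annotation). In order along the chromosome, Ly6d (ENSMUSG00000034634) spans chr15:74762056-74763620 on the minus strand. Ly6e (ENSMUSG00000022587) spans chr15:74955051-74959905 on the plus strand. Ly6a (ENSMUSG00000075602, chr15:74994877-74998031), Ly6c1 (ENSMUSG00000079018, chr15:75044018-75048830) and Ly6c2 (ENSMUSG00000022584, chr15:75108158-75111970) follow on the minus strand. The assay reads the 3′ ends of transcripts, and there Ly6c1 and Ly6c2 are near copies, with 484 of 493 aligned bases identical (98.2%). Over the last 500 bases, 90 of 451 windows of 50 bases of Ly6c1 and 93 of 451 (20.6%) of Ly6c2 occur unchanged in another gene, 90 of them in each other, so reads from those windows cannot be told apart. Their counts are therefore less certain than those of Ly6d and Ly6e, which shared no such window. Ly6a shared 20 of its windows (4.4%) with I830127L07Rik.

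The sequences just before the starts of Ly6c1 and Ly6c2 are shown because these near copies were counted at very different levels below. Both are on the minus strand of GRCm38.p6, from RefSeq, written 5′ to 3′ and limited to bases outside annotated genes (chr15:75048921-75049087 for Ly6c1 and chr15:75112067-75112221 for Ly6c2). Capitals mark bases that differ from, or have no partner in, the other gene.
Ly6c1: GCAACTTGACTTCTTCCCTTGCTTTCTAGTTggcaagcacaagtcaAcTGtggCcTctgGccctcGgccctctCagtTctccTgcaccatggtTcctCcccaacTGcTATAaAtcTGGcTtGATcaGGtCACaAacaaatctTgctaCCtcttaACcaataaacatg
Ly6c2: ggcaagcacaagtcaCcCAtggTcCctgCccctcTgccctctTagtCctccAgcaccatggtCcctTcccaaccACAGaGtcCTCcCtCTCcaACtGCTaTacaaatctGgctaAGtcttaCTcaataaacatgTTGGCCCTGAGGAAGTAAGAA
In the stretch that aligned, 99 of 136 columns were identical (72.8%), a lower share than at the 3′ ends. Short motifs were searched on both strands, with overlaps allowed, in 250 bases per gene. These hold the printed bases and further ones inside the annotated extent of the gene. TATAA was found in Ly6c1 and not in Ly6c2, and 22.8% of 32851 promoters of that length hold it. The same was true of CCAAT, which 33.8% of promoters hold. The letters TTCNNNGAA, held by 7.0%, were in neither. A match, or its lack, only describes the letters of this window.

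Libraries held 9348094 to 72440894 unique molecular identifiers (UMIs, each marking 1 captured RNA molecule), and 84231 cells were kept with library medians of 3553 to 14285 UMIs per cell. Cells were assigned to classes from raw counts of fixed markers, none of them a Ly6 gene: at least 3 markers of a list and 2 more than of any other list, or, for plasma-like cells, at least 10 Jchain UMIs and 4 of 6 further plasma markers. For each library and class with at least 20 cells, UMIs were summed and given per 1000000 UMIs of that class (CPM). This left 36341 B-like cells in 20 libraries, 2356 plasma-like cells in 14, 28113 T-like cells in 20 and 6182 myeloid-like cells in 17. The classes held their own markers. The summed B list lay at 1159 to 6564 CPM in B-like and 18.3 to 385 CPM in T-like cells, and the T list at 1868 to 4761 CPM in T-like and 14.5 to 262 CPM in B-like cells, where Lck (up to 186 CPM) and Cd3g (up to 135 CPM) carried most of it. Eµ-PRMT5 spleen 4 stood apart: its B-like cells had the lowest B list (1159 CPM), and its 80 T-like cells had the highest B list of all T-like cells (385 CPM).

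Ly6d was abundant in the B lineage and low in T and myeloid cells. Ly6d lay between 504 and 3497 CPM in B-like cells (median 1033 CPM, 20 libraries) and between 227 and 2142 CPM in plasma-like cells (median 1023 CPM, 14 libraries). Because 1 end is counted for each molecule, UMI counts do not scale with transcript length. Ly6d was at a median of 20.6 CPM in T-like cells (1.78 to 706) and 15.9 CPM in myeloid-like cells (0 to 158). Within spleens, Ly6d was lower in T-like than in B-like cells in 13 of 13. The log2 difference was -5.66 ± 0.61 (approximate standard error, edgeR quasi-likelihood test with the spleen as a block, adjusted p = 1.3e-06). Ly6d was lower in myeloid-like than in B-like cells in 13 of 13 as well (log2 difference -5.82 ± 0.49, adjusted p = 2.6e-08). Such differences were common between classes, since 58.7% of the genes tested were called between T-like and B-like and 68.6% between myeloid-like and B-like cells at an adjusted p under 0.05. When each cell was thinned to 1000 UMIs, the median share of cells with a Ly6d UMI was 52.4% in B-like and 0.707% in T-like cells (90.7% and 2.27% before thinning, and no cell was too shallow to be thinned). Droplets of 10 to 100 UMIs, which hold mostly free RNA, carried Ly6d at 156 to 1243 CPM, above the T-like level in 19 of 20 libraries and below the B-like level in all 20. The part of free RNA in the small T-like share was not tested.

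Ly6e was counted in every class. Its median was 2301 CPM in B-like cells (1251 to 3738), 2501 CPM in plasma-like cells (991 to 3840), 1476 CPM in myeloid-like cells (510 to 2828) and 957 CPM in T-like cells (545 to 1688). Ly6e was lower in T-like than in B-like cells of the same spleen in 13 of 13 (log2 difference -1.24 ± 0.14, adjusted p = 2.6e-06) and lower in myeloid-like than in B-like cells in 12 of 13 (log2 difference -0.60 ± 0.19, adjusted p = 0.0095). Thinned to 1000 UMIs, a median of 86.6% of B-like and 53.1% of T-like cells had a Ly6e UMI. Droplets held 900 to 3076 CPM of Ly6e, below the B-like level in 20 of 20 libraries and above the T-like level in 18 of 20 and the myeloid-like level in 10 of 17. The part of free RNA in the T-like and myeloid-like values was not tested.

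Ly6c2 had the opposite pattern, low in B-like cells and high in T-like and myeloid-like cells. In B-like cells Ly6c2 lay between 0.367 and 33.8 CPM (median 4.46), below the level in droplets of the same library (19.5 to 832 CPM) in 20 of 20, and a median of 0.295% of thinned B-like cells had a Ly6c2 UMI (1.96% before thinning). The part of free RNA in these counts was not tested. In T-like cells it lay between 91.4 and 860 CPM (median 466), and in myeloid-like cells between 825 and 2665 CPM (median 1200), above droplets in 18 of 20 and 16 of 17 libraries. Both classes exceeded B-like cells in 13 of 13 spleens, with log2 differences of 6.99 ± 0.51 for T-like (adjusted p = 2.6e-08) and 9.03 ± 0.58 for myeloid-like cells (adjusted p = 1.1e-09). Ly6c1, by contrast with its near copy, had 29 UMIs in all B-like, 215 in all T-like and 230 in all myeloid-like cells, and did not pass 0.661, 4.96 and 8.50 CPM in any library of these classes. Its highest value in any set of cells, 33.1 CPM in CD4 T-like cells of Eµ-PRMT5 spleen 2, rested on 9 UMIs of 1 cell among 48. Ly6c1 passed the filter on low counts only in the T-like spleen comparisons.

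Plasma-like cells had more Ly6c2 and Ly6a than B-like cells. Ly6c2 was higher in plasma-like than in B-like cells in 9 of 9 spleens, with medians of 124 and 4.59 CPM and a log2 difference of 5.85 ± 0.35 (adjusted p = 1.1e-08), where 46.5% of genes tested were called. Ly6a was also higher, in 7 of 9 spleens (medians 588 and 366 CPM, log2 difference 1.52 ± 0.29, adjusted p = 0.00045). The fitted log2 differences of Ly6d (0.95 ± 0.27, adjusted p = 0.0091) and Ly6e (0.90 ± 0.16, adjusted p = 0.00033) depended on the scaling: on library totals alone, chosen after seeing the data, they were 0.25 (adjusted p = 0.29) and 0.19 (adjusted p = 0.22), and Ly6d was higher in 4 of 9 spleens by CPM. The TMM scaling used here set the median difference of all genes at -0.11 and library totals at -0.80, and the calls changed from 2040 higher and 2447 lower to 777 higher and 6414 lower. Ly6a (0.80) and Ly6c2 (5.15) stayed called on library totals. Ly6c2 in plasma-like cells lay above the droplets of the same library in 5 of 14 libraries. The T list was at 9.36 to 166 CPM and the myeloid list at 5.51 to 149 CPM in plasma-like cells, and their part in the Ly6c2 counts was not tested.

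**Figure D1:**
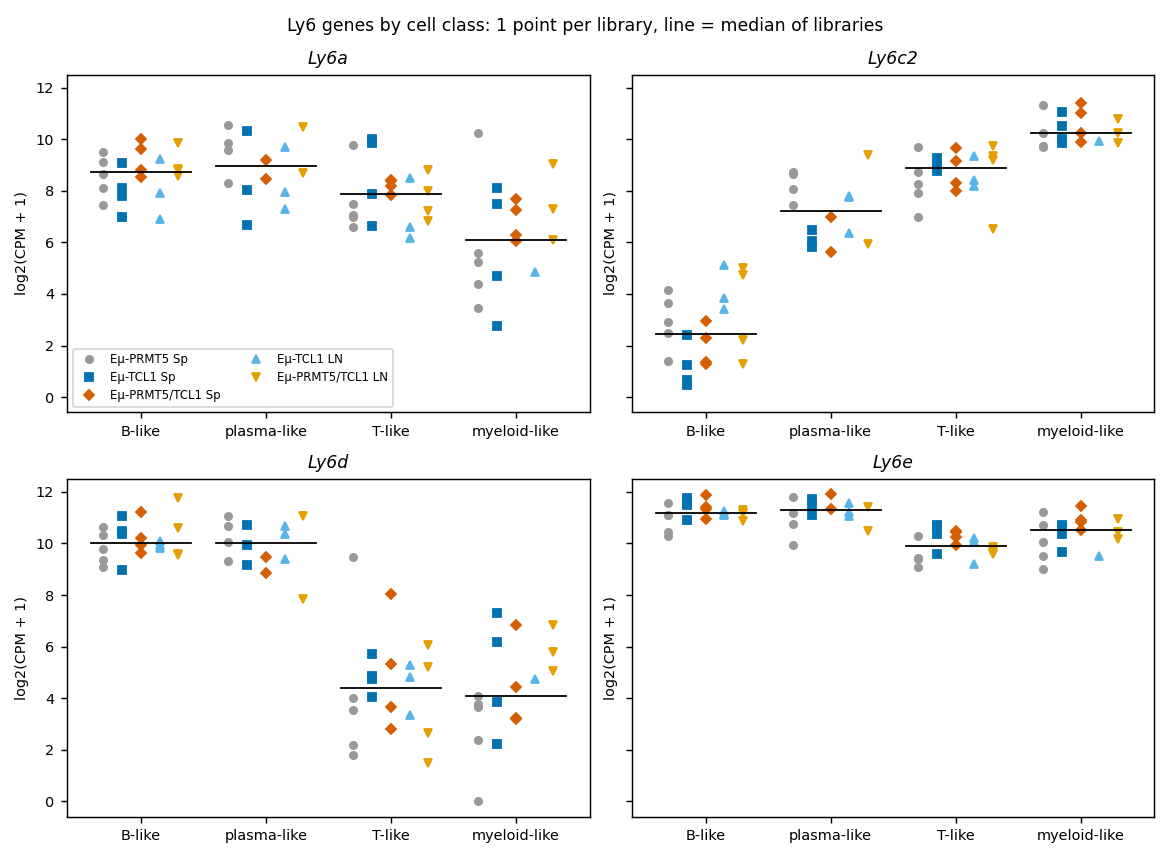
Level of Ly6a, Ly6c2, Ly6d and Ly6e as log2(CPM + 1) in B-like, plasma-like, T-like and myeloid-like cells, with 1 point per library of at least 20 cells (Sp, spleen; LN, lymph node) and a line at the median of libraries. Ly6d is at a median of 1033 CPM in B-like and 20.6 CPM in T-like cells, while Ly6c2 is at 4.46 CPM in B-like and 1200 CPM in myeloid-like cells.

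Among T-like cells, Ly6a and Ly6c2 divided CD8 and CD4 cells in opposite directions. CD8 T-like cells (Cd8a or Cd8b1) made up most of the class, with 21239 cells in 20 libraries against 2508 CD4 T-like cells in 14. Ly6c2 was at a median of 550 CPM in CD8 (142 to 971) and 41.5 CPM in CD4 T-like cells (3.73 to 402), and was higher in CD8 cells in 9 of 9 spleens (log2 difference 3.67 ± 0.37, adjusted p = 6.1e-06). Ly6a was at a median of 141 CPM in CD8 (58.6 to 933) and 464 CPM in CD4 T-like cells (201 to 1311), and was lower in CD8 cells in 9 of 9 spleens (log2 difference -1.38 ± 0.22, adjusted p = 0.00041). Of the genes tested, 25.1% were called in this contrast, with 1041 higher and 1135 lower in CD8 cells (537 and 2537 on library totals). Ly6a lay above droplets in 12 of 14 libraries in CD4 and below them in 16 of 20 in CD8 T-like cells, while Ly6c2 lay above them in 19 of 20 in CD8 and below them in 13 of 14 in CD4 T-like cells. Ly6d (log2 difference -0.09 ± 0.73) and Ly6e (0.00 ± 0.12, and -0.23 on library totals) did not pass. Lymph nodes had the same order: in each of the 5 nodes with both classes Ly6a was higher in CD4 and Ly6c2 higher in CD8 cells, from 298 against 81.6 CPM of Ly6a in Eµ-TCL1 lymph node 2 to 846 against 155 CPM in Eµ-PRMT5/TCL1 lymph node 4.

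**Figure D2:**
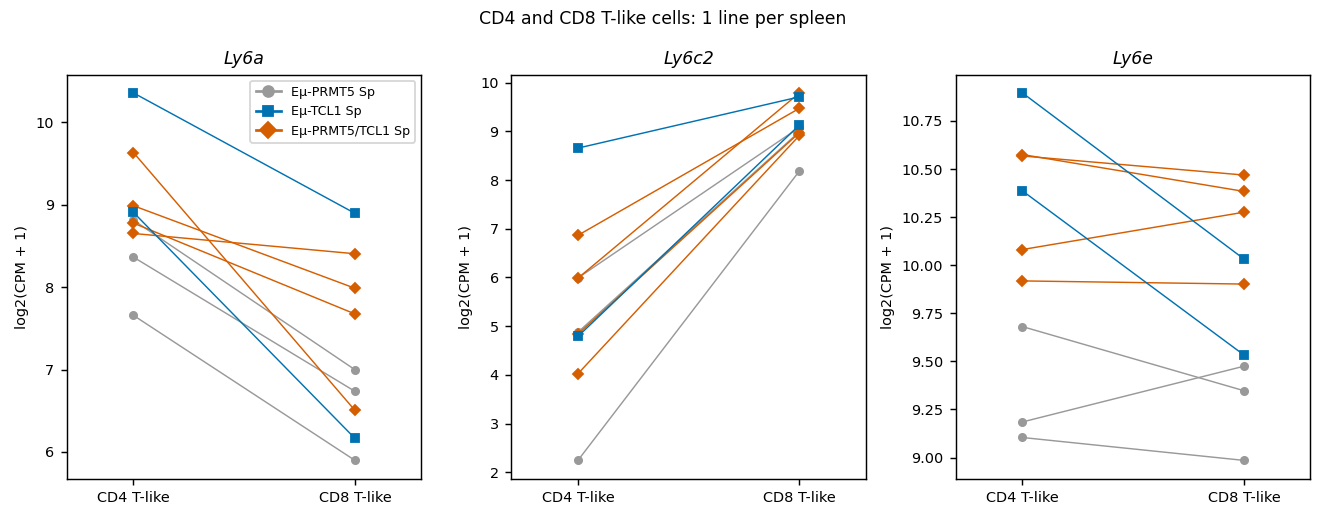
Ly6a, Ly6c2 and Ly6e as log2(CPM + 1) in CD4 and CD8 T-like cells, with 1 line for each of the 9 spleens that had at least 20 cells of both. The Ly6a lines fall and the Ly6c2 lines rise from CD4 to CD8 in all 9 spleens, and the Ly6e lines go both ways, down in 7 and up in 2.

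Among myeloid-like cells, those with neutrophil markers and those with monocyte or macrophage markers had close medians of Ly6c2 and separate ranges of Ly6e. Ly6c2 was at a median of 987 CPM in neutrophil-marked (758 to 1530, 14 libraries) and 975 CPM in monocyte/macrophage-marked cells (511 to 2410, 16 libraries). Ly6e was at a median of 202 CPM in neutrophil-marked cells (67.9 to 425) and 2282 CPM in monocyte/macrophage-marked cells (923 to 3761), so that the ranges did not overlap. Droplets of the same library held more Ly6e than the neutrophil-marked cells in 14 of 14 libraries and more than the monocyte/macrophage-marked cells in 3 of 16. Ly6a was at 13.6 CPM (2.56 to 62.9) and 130 CPM (8.22 to 1750) in the same order. Cells with granulocyte-monocyte progenitor markers, in 7 libraries, had medians of 1121 CPM of Ly6c2, 723 CPM of Ly6e and 41.7 CPM of Ly6a. No test was planned between these groups of cells, and their levels are a description. Against B-like cells, Ly6a was lower in all myeloid-like cells together in 12 of 13 spleens (log2 difference -2.38 ± 0.46, adjusted p = 0.00023), Eµ-PRMT5 spleen 4 being the exception. Calls between myeloid-like and B-like cells were 3381 higher and 3855 lower (2695 and 4783 on library totals). Ly6a in T-like against B-like cells did not pass (log2 difference -0.58 ± 0.34, adjusted p = 0.16).

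**Figure D3:**
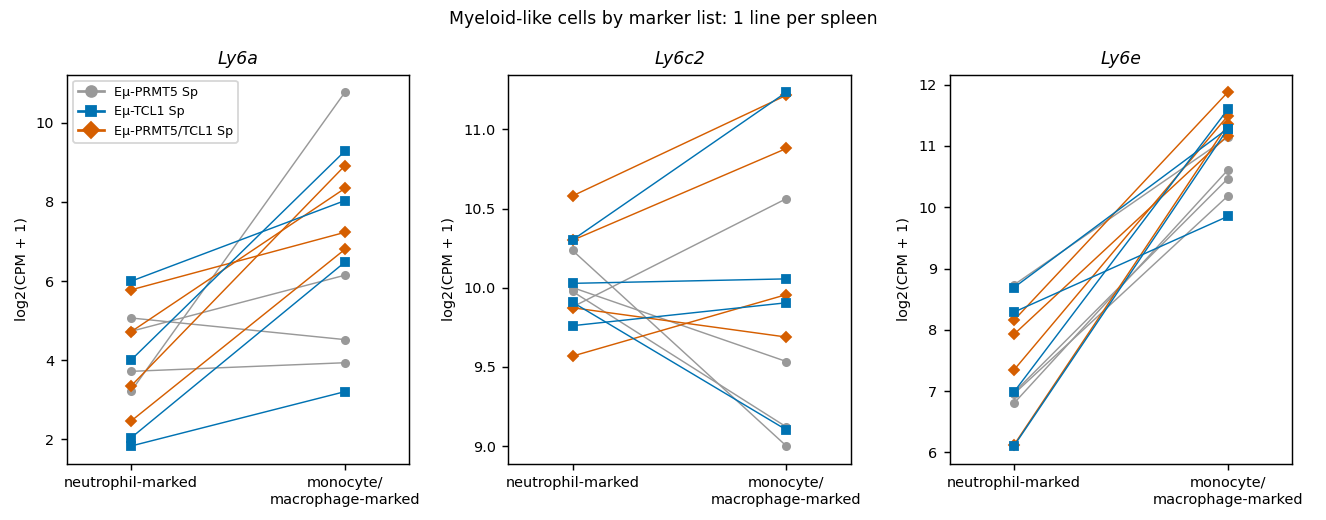
Ly6a, Ly6c2 and Ly6e as log2(CPM + 1) in myeloid-like cells with neutrophil markers and with monocyte or macrophage markers, with 1 line per spleen that had at least 20 cells of both. Ly6e is higher in the monocyte/macrophage-marked cells of each spleen, with medians over all libraries of 202 and 2282 CPM, while Ly6c2 has medians of 987 and 975 CPM.

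Ly6a was the most uneven of the 3 abundant members between mice in B-like cells, with an 8.58-fold range against 6.94-fold for Ly6d and 2.99-fold for Ly6e. In B-like cells of Eµ-PRMT5 spleens 1 to 5, Ly6a was at 175, 720, 550, 397 and 274 CPM. In Eµ-TCL1 spleens 1 to 4 it was at 535, 278, 219 and 126 CPM. In Eµ-PRMT5/TCL1 spleens 1 to 4 it was at 447, 1015, 792 and 366 CPM. The Eµ-PRMT5/TCL1 spleens were the highest group, yet the lowest of them lay under the highest Eµ-TCL1 spleen and under 3 of the 5 Eµ-PRMT5 spleens. In Eµ-TCL1 lymph nodes 1 to 3 Ly6a was at 598, 238 and 118 CPM, and in Eµ-PRMT5/TCL1 lymph nodes 1 to 4 at 377, 447, 456 and 924 CPM, again with overlap. B-like Ly6a lay above the droplets of the same library in 14 of 20 libraries and below them in the other 6, among them Eµ-TCL1 spleens 2, 3 and 4 (droplets at 297, 336 and 201 CPM), and the part of free RNA in these values was not tested. The log2 difference of Eµ-PRMT5/TCL1 against Eµ-TCL1 was 1.14 ± 0.54 in spleens (adjusted p = 0.98, 0.00853% of genes called) and 0.95 ± 0.55 in lymph nodes (adjusted p = 0.80, 0% called by edgeR, with 793 genes at an unadjusted p under 0.05 and 90 called by DESeq2). The lymph node value ranged from 0.51 without Eµ-PRMT5/TCL1 lymph node 4 to 1.68 without Eµ-TCL1 lymph node 1. Against Eµ-PRMT5 spleens it was 0.72 ± 0.50 (adjusted p = 0.66, 0% called by edgeR, with 1084 genes at an unadjusted p under 0.05 and 136 called by DESeq2), and Eµ-PRMT5 against Eµ-TCL1 spleens gave 0.42 ± 0.51 (adjusted p = 0.69, 0.0171% called). The spleen comparisons share samples and are not independent. In lymph nodes the plasma list of B-like cells was at 2628 to 4202 CPM in Eµ-TCL1 and 672 to 2432 CPM in Eµ-PRMT5/TCL1 mice, without overlap. Its part in the lymph node differences of B-like cells, here and below, was not tested.

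Ly6d and Ly6e in B-like cells gave no call by genotype either. In spleens, Ly6d was lowest in Eµ-TCL1 spleen 1 (504 CPM) and highest in Eµ-PRMT5/TCL1 spleen 2 (2377 CPM), and its highest value of all, 3497 CPM, was in the lymph node of that same mouse, Eµ-PRMT5/TCL1 lymph node 4. Ly6d log2 differences were -0.45 ± 0.51 for Eµ-PRMT5 against Eµ-TCL1 spleens, -0.04 ± 0.54 for both transgenes against Eµ-TCL1 alone in spleens, 0.42 ± 0.51 for Eµ-PRMT5/TCL1 against Eµ-PRMT5 spleens and 0.83 ± 0.57 between lymph nodes. The last of these ranged from 0.042 to 1.08 with 1 library left out. Ly6e ran from 1251 CPM in Eµ-PRMT5 spleen 1 to 3738 CPM in Eµ-PRMT5/TCL1 spleen 4. Its log2 differences in the same order were -0.59 ± 0.29, -0.14 ± 0.31, 0.45 ± 0.29 and 0.02 ± 0.21. None of these 8 values passed, the lowest adjusted p being 0.30 for Ly6e in Eµ-PRMT5 against Eµ-TCL1 spleens (edgeR), and with standard errors of 0.21 to 0.57 a p that missed the threshold does not show that the groups were alike. Ly6c2 in B-like cells, below droplets in each library, gave 2.17 ± 0.81, 0.86 ± 0.81, -1.31 ± 0.78 and -0.08 ± 0.98 in the same order, and none passed (lowest adjusted p = 0.18). With 1 library left out the first of these ranged from 1.66 (without Eµ-PRMT5 spleen 5) to 3.27 (without Eµ-TCL1 spleen 1) and the second from 0.47 (without Eµ-PRMT5/TCL1 spleen 4) to 1.96 (without Eµ-TCL1 spleen 1).

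**Figure D4:**
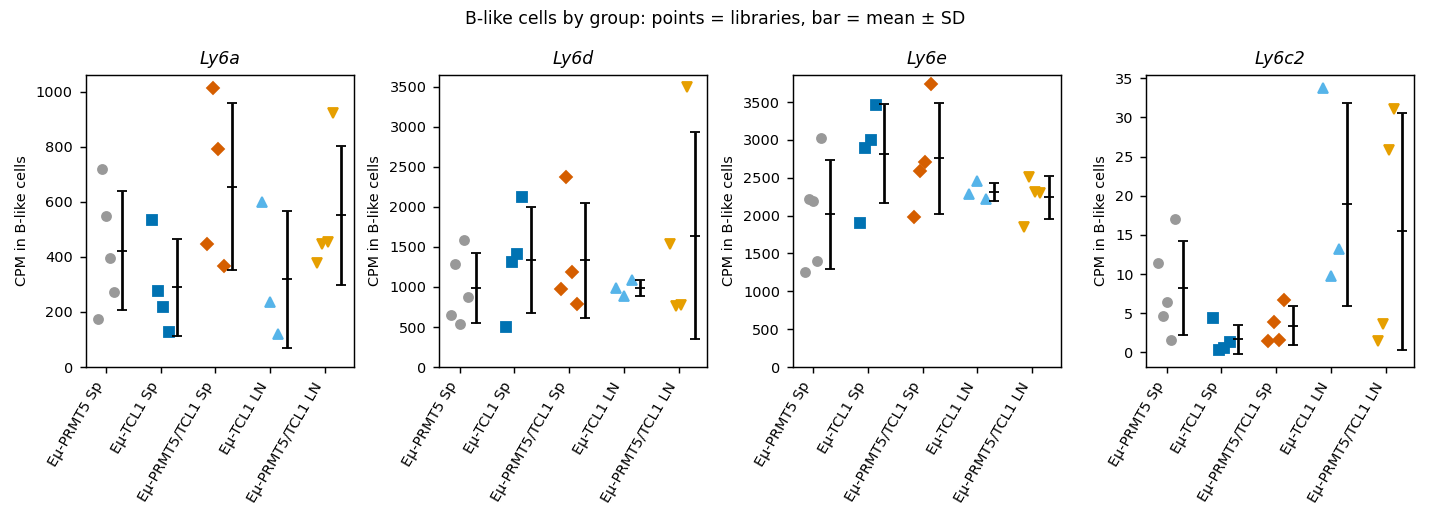
CPM of Ly6a, Ly6d, Ly6e and Ly6c2 in B-like cells of the 5 groups of libraries (Sp, spleen; LN, lymph node), with 1 point per library and bars for mean ± SD. Groups overlap for Ly6a, Ly6d and Ly6e, with Ly6a highest at 1015 CPM in an Eµ-PRMT5/TCL1 spleen, and Ly6c2 stays at or below 33.8 CPM.

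Within a mouse, the Ly6a level of B-like cells was close between spleen and lymph node. The 7 ratios of lymph node to spleen ran from 0.576 to 1.12, beside the 8.58-fold range over all libraries. From spleen to lymph node Ly6a went from 535 to 598, from 278 to 238 and from 126 to 118 CPM in the 3 Eµ-TCL1 mice. In the 4 Eµ-PRMT5/TCL1 mice it went from 447 to 447, from 1015 to 924, from 366 to 377 and from 792 to 456 CPM. The last of these was the largest change. The paired values lay above the droplets of their library except in Eµ-TCL1 spleens 2 and 4, Eµ-TCL1 lymph node 3 and Eµ-PRMT5/TCL1 spleen 4. With the mouse as a block, the log2 difference was -0.12 ± 0.14 (adjusted p = 0.79, 0.0618% of genes called). Ly6d (0.02 ± 0.27) and Ly6e (-0.21 ± 0.17) did not pass in this comparison.

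Ly6c2 in B-like cells was higher in the lymph node in 6 of 7 mice, from 0.367 to 6.66 CPM in spleens to 1.40 to 33.8 CPM in lymph nodes. The log2 difference of 2.64 ± 0.67 did not pass (unadjusted p = 0.0025, adjusted p = 0.17). It passed when the mouse of Eµ-PRMT5/TCL1 spleen 4 and lymph node 1, the only mouse with less Ly6c2 in the lymph node (6.66 and 1.40 CPM), was left out (log2 difference 3.16, adjusted p = 0.0097), and with DESeq2 (2.72, adjusted p = 0.0052). The T list of B-like cells was also higher in the lymph node in 6 of 7 mice, but not in the same 6. Lck and Cd3g carried most of this list in B-like cells, as given above. Cd3d, Cd3e and Trbc2 were found in at most 7.78%, 7.16% and 3.19% of the B-like cells of any library. In the mouse whose Ly6c2 was lower in the node the T list went from 93.8 to 184 CPM, and in the mouse whose T list was lower there (66.0 to 45.1 CPM) Ly6c2 went from 1.35 to 13.2 CPM. Ly6c2 in droplets was higher in the lymph node in 1 of 7 mice, and the B list of B-like cells in 0 of 7. Over all Eµ-TCL1 libraries the plasma list of B-like cells was at 1209 to 3482 CPM in spleens and 2628 to 4202 CPM in nodes. Over Eµ-PRMT5/TCL1 libraries it was at 989 to 3020 and 672 to 2432 CPM. Markers of plasmacytoid dendritic cells were at 19.7 to 69.3 and 33.8 to 154 CPM in Eµ-TCL1 libraries. In Eµ-PRMT5/TCL1 libraries they were at 6.68 to 66.8 and 11.3 to 105 CPM. The part of any of these in the B-like values was not tested. In T-like cells Ly6c2 differed by less than its error between tissues.

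**Figure D5:**
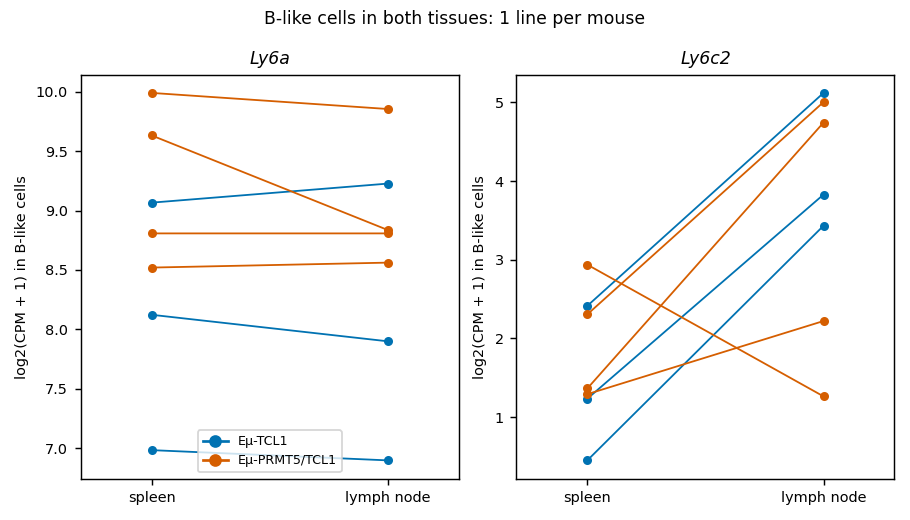
Ly6a and Ly6c2 as log2(CPM + 1) in B-like cells of spleen and lymph node, with 1 line for each of the 7 mice. Ly6a lines are close to level (ratios 0.576 to 1.12), and Ly6c2 lines rise in 6 mice and fall in 1, all at or below 33.8 CPM.

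In plasma-like cells of spleens, Ly6c2 was the member with the largest differences between Eµ-PRMT5 and each of the other 2 genotypes, without passing after adjustment. It was at 172, 395, 419 and 266 CPM in Eµ-PRMT5 spleens 1, 2, 3 and 5, at 88.1, 64.8 and 56.03 CPM in Eµ-TCL1 spleens 1, 3 and 4, and at 48.0 and 124 CPM in Eµ-PRMT5/TCL1 spleens 1 and 4. All Eµ-PRMT5 values thus lay above those of both other groups. The log2 difference was 2.91 ± 0.48 for Eµ-PRMT5 against Eµ-TCL1 (unadjusted p = 6.6e-05, adjusted p = 0.20), -2.63 ± 0.55 for Eµ-PRMT5/TCL1 against Eµ-PRMT5 (adjusted p = 0.68) and 0.28 ± 0.51 between the Eµ-PRMT5/TCL1 and Eµ-TCL1 groups (adjusted p = 0.99). edgeR called 0% of genes in each of these, with 822, 457 and 325 genes at an unadjusted p under 0.05, while DESeq2 called 65, 22 and 7 genes, Ly6c2 among them in the first 2 (adjusted p = 3.1e-07 and 0.00026). Without the filter on low counts edgeR called Ly6c2 as well in those 2 (adjusted p = 4.2e-06 and 0.0024). The other members did not pass in plasma-like cells. For Eµ-PRMT5 against Eµ-TCL1 spleens the log2 differences were 1.48 ± 0.85 for Ly6a, 1.04 ± 0.55 for Ly6d and 0.30 ± 0.57 for Ly6e. For Eµ-PRMT5/TCL1 against Eµ-PRMT5 spleens they were -1.68 ± 1.00, -1.84 ± 0.66 (unadjusted p = 0.017, adjusted p = 0.68) and -0.01 ± 0.64 in the same order. Between Eµ-PRMT5/TCL1 and Eµ-TCL1 they were -0.20 ± 0.98, -0.80 ± 0.65 and 0.28 ± 0.67 in spleens, and 1.38 ± 0.71, 0.13 ± 0.74 and 0.10 ± 0.45 in lymph nodes.

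Several values stand beside this plasma-like difference. The Eµ-PRMT5 sums rest on 21 to 53 cells and 145 to 470 Ly6c2 UMIs each. Among libraries under 20 cells, Eµ-PRMT5 spleen 4 had no Ly6c2 UMI in 17 plasma-like cells and Eµ-PRMT5/TCL1 spleen 3 was at 864 CPM in 4, both against this order, while Eµ-TCL1 spleen 2 had no UMI in 2. The T list was at 9.55 to 20.2 CPM in the Eµ-PRMT5 and 53.6 to 166 CPM in the Eµ-TCL1 plasma-like cells, and the myeloid list at 5.51 to 91.7 and 67.7 to 149 CPM, which overlap. In the Eµ-PRMT5/TCL1 plasma-like cells, where Ly6c2 was low, the T list was at 9.36 to 43.6 and the myeloid list at 16.9 to 79.9 CPM. The B list was at 741 to 3185 CPM in Eµ-PRMT5, 2061 to 4813 CPM in Eµ-TCL1 and 3205 to 4001 CPM in Eµ-PRMT5/TCL1 plasma-like cells, and the plasma list at 16683 to 48507, 14306 to 26790 and 24184 to 38890 CPM in the same order. The part of any of these lists in the difference was not tested. Droplets held 193 to 832 CPM of Ly6c2 in Eµ-PRMT5, 115 to 371 CPM in Eµ-TCL1 and 96.3 to 528 CPM in Eµ-PRMT5/TCL1 spleens (medians 249.8, 249 and 316 CPM), and the part of free RNA was not tested. In lymph nodes Ly6c2 of plasma-like cells was at 212, 82.0 and 220 CPM in Eµ-TCL1 nodes 1 to 3 and at 60.5 and 664 CPM in Eµ-PRMT5/TCL1 nodes 2 and 4 (log2 difference 1.24 ± 0.78, adjusted p = 0.76, 0% called by edgeR, with 545 genes at an unadjusted p under 0.05 and 26 called by DESeq2). In 3 mice with both tissues it was higher in the lymph node in 3 of 3, by 1.26 to 3.92-fold (log2 difference 1.24 ± 0.27, adjusted p = 0.24, 0.168% called).

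In T-like cells no member passed by genotype or tissue (0% of genes called by edgeR in each of these 5 comparisons, with 430 to 1440 genes at an unadjusted p under 0.05, and 0 to 110 genes but no member called by DESeq2). Ly6a spread widely between Eµ-TCL1 spleens, at 1028, 98.8, 925 and 236 CPM in spleens 1 to 4, while the Eµ-PRMT5/TCL1 spleens lay close together at 227.7 to 345 CPM. Eµ-PRMT5 spleens 1 to 5 were at 124, 179, 134, 878 and 96.4 CPM (log2 difference to Eµ-TCL1 -0.91 ± 0.74, adjusted p = 0.85, and -2.11 without spleen 4, adjusted p = 0.30). Ly6d of T-like cells was at 706 CPM in Eµ-PRMT5 spleen 4 and at 2.48 to 15.03 CPM in the other 4, and the fitted log2 difference to Eµ-TCL1 (2.44 ± 1.60) became -1.92 without that library. For Ly6e the log2 difference between the same groups was -0.73 ± 0.30 (adjusted p = 0.75), and for Ly6c2 it was -0.34 ± 0.50. Both Ly6a and Ly6e were lower in the lymph node in 6 of 7 mice, with log2 differences of -0.65 ± 0.27 (adjusted p = 0.39) and -0.38 ± 0.17 (adjusted p = 0.41). The B list of T-like cells was higher in the lymph node in 1 of 7 mice (42.3 to 172 CPM in spleens, 18.3 to 128 CPM in nodes). Ly6a and Ly6e in droplets were each higher there in 2 of 7. The part of either in these differences was not tested. Cd4 of T-like cells was at 1.96 to 77.3 CPM in Eµ-PRMT5, 0 to 174 CPM in Eµ-TCL1 and 9.88 to 82.0 CPM in Eµ-PRMT5/TCL1 spleens. The CD8 list was at 369 to 781, 248 to 971 and 373 to 871 CPM in the same order. In nodes Cd4 was at 4.83 to 38.7 CPM in Eµ-TCL1 and 12.6 to 107 CPM in Eµ-PRMT5/TCL1 mice. The part of the mix of CD4 and CD8 cells in the T-like values was not tested.

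In myeloid-like cells no member passed either (0% of genes called between genotypes by edgeR, with 163 to 324 genes at an unadjusted p under 0.05, and 0 to 3 genes but no member called by DESeq2; 1.08% called between tissues). Ly6a of Eµ-PRMT5 spleens 1 to 5 was at 19.6, 36.7, 9.83, 1215 and 46.7 CPM. The value of spleen 4 was the highest of any library in this class. Of its 16157 Ly6a UMIs, 3645 came from monocyte/macrophage-marked cells (1750 CPM), 1359 from progenitor-marked cells (475 CPM) and 12 from neutrophil-marked cells (8.30 CPM), and the rest, the larger part, from myeloid-like cells in none of these sets. Its B list was low in these cells (24.4 CPM). The log2 difference to Eµ-TCL1 spleens, 1.27 ± 1.29, became -2.26 without that library. Ly6d gave a log2 difference of -2.19 ± 1.00 between these groups (unadjusted p = 0.045, not called), at levels under those of droplets in all libraries. With 1 library left out this difference ranged from -2.67 to -1.27. In the 4 mice with myeloid-like cells of both tissues, the list of granulocyte-monocyte progenitor markers was at 2949 to 5170 CPM in the spleens and 1098 to 1593 CPM in the lymph nodes, with no overlap, and its part in the tissue differences of myeloid-like cells, here and below, was not tested. Ly6a was higher in 3 lymph nodes (log2 difference 0.79 ± 0.38, adjusted p = 0.36, and 1.44 with adjusted p = 0.022 without the mouse of Eµ-PRMT5/TCL1 spleen 3) and Ly6c2 lower in 3 (-0.34 ± 0.16, adjusted p = 0.34). The myeloid list, which holds the neutrophil markers S100a8 and S100a9, went from 97452 to 192196 CPM in that mouse, where Ly6a fell. Where Ly6a rose, the list fell in the mice of Eµ-PRMT5/TCL1 spleens 2 (86989 to 39492 CPM) and 1 (100595 to 76492 CPM). It rose in the mouse of Eµ-TCL1 spleen 4 (78882 to 118812 CPM). The part of the mix of myeloid cells in these tissue differences was not tested.

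Over the 19 comparisons of genotype and tissue, 79 tests of a Ly6 member were made and 0 were called by edgeR, the lowest adjusted p being 0.17. Of the 79 tests, 11 (13.9%) had an unadjusted p under 0.05, 6 of them of Ly6c2, beside 8.03% of 183372 tests of all genes. DESeq2 called 1 member, Ly6c2, in 4 comparisons (B-like cells between tissues, and plasma-like cells between tissues and in the 2 genotype comparisons named above). The change between tissues was also compared between Eµ-TCL1 and Eµ-PRMT5/TCL1 mice by an interaction term in B-like and T-like cells. No member was called (0% of genes called, with 199 and 143 genes at an unadjusted p under 0.05), and the values were -0.02 ± 0.31 for Ly6a and -1.68 ± 1.21 for Ly6c2 in B-like cells. Sex, read from Xist and Y-linked genes, was not balanced: 4 of 5 Eµ-PRMT5, 1 of 4 Eµ-TCL1 and 3 of 4 Eµ-PRMT5/TCL1 mice were female. The libraries of a group came from separate mice, so p-values between genotypes measure the spread between mice. With the mouse as a block, p-values between tissues and of the interaction term measure how much the tissue difference varied between mice.

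Other genes of the family and its pathway were called between classes, and none between genotypes. The shares of all genes called, given above with each contrast (46.5%, 58.7%, 68.6% and 25.1% for plasma-like, T-like and myeloid-like against B-like and for CD8 against CD4 T-like cells), stand beside the counts between classes that follow. Of 30 other Ly6/uPAR genes 1 to 7 could be tested in each comparison, and 0 were called in any genotype comparison. Between plasma-like and B-like cells Ly6k (log2 difference 3.49 ± 0.38) and Cd59a (1.3 ± 0.31), the inhibitor of the complement membrane attack complex, were called higher, and Plaur, the urokinase receptor, lower (-2.71 ± 0.29), among 4 tested. On library totals, a scaling applied to these lists after seeing the data, Cd59a did not pass (0.64, adjusted p = 0.056) and Lynx1 was called lower (-0.65, adjusted p = 0.026). Cd59a, Plaur and Lynx1 were lower in T-like than in B-like cells among 4 tested. In myeloid-like cells Plaur (361 to 1399 CPM), Cd177 (77.1 to 1036 CPM) and Ly6g (26.8 to 343 CPM), the latter pair known from neutrophils, and Ly6i were higher and Lynx1 lower than in B-like cells among 5 tested. Ly6i was also higher in lymph node than in spleen myeloid-like cells (log2 difference 1.72 ± 0.19, adjusted p = 0.0014), where the progenitor list was lower in the node. Between CD8 and CD4 T-like cells only Plaur could be tested, and it was not called (it was lower on library totals, with a log2 difference of -1.11 and adjusted p = 0.036).

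Of 25 genes that build and attach the GPI anchor, 0 were called between genotypes or tissues in any class. Between plasma-like and B-like cells the direction depended on the scaling: 5 were called higher and 1 lower of 24 tested (median log2 difference 0.07 beside -0.11 for all genes), but 0 higher and 14 lower on library totals (-0.63 beside -0.80). Pigt (0.74 ± 0.12), Pigk (0.99 ± 0.15) and Gpaa1 (0.81 ± 0.16), subunits of the transamidase that attaches the anchor, were among those called higher and were at 0.030, 0.32 and 0.12 on library totals, where none of them passed. In T-like against B-like cells 4 were higher and 9 lower of 24 (4 and 8 on library totals), in myeloid-like against B-like cells 6 higher and 8 lower of 24 (3 and 11), and between CD8 and CD4 T-like cells 2 higher and 1 lower of 20 (0 and 4). With the TMM scaling, none of these 4 counts was a larger share of its list than the share of all genes called in the same contrast.

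Of 18 interferon-induced genes, 0 were called between genotypes in any class. Their median log2 difference in B-like cells was -0.81 for Eµ-PRMT5 against Eµ-TCL1 spleens, 0.06 for both transgenes against Eµ-TCL1 alone in spleens, 0.89 for Eµ-PRMT5/TCL1 against Eµ-PRMT5 spleens and 0.72 between lymph nodes, beside 0.01, 0.00, -0.04 and 0.02 for all genes. In myeloid-like cells, 5 of 15 tested were called higher in lymph node than in spleen, beside 1.08% of all genes: Isg15 (log2 difference 1.76 ± 0.18), Rtp4 (2.19 ± 0.20), Zbp1 (1.10 ± 0.23), Irf7 (1.04 ± 0.21) and Ifi27l2a (1.10 ± 0.20). These are the cells whose progenitor list was at 1098 to 1593 CPM in the nodes and 2949 to 5170 CPM in the spleens. Between classes 13 of 18 were higher in T-like and 15 of 18 in myeloid-like than in B-like cells with 0 lower (14 in each on library totals, again with 0 lower), beside 58.7% and 68.6% of all genes called in either direction. In plasma-like against B-like cells 5 of 11 were higher and 2 lower (4 and 4 on library totals), beside 46.5%. In CD8 against CD4 T-like cells 8 of 16 were higher and 4 lower (5 and 7 on library totals), beside 25.1%.

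Across the B-like sums of the 20 libraries, the genes whose levels ran most alike with Ly6a were Nlrc5, the activator of MHC class I genes (Pearson r = 0.82 of log2(CPM + 1)), Cybb, a subunit of the phagocyte oxidase (0.81), and H2-Q7, an MHC class I gene (0.79), among 5667 genes with a mean of at least 20 CPM. For Ly6d they were Mrps34 (0.69), Mrpl14 (0.67), both parts of the mitochondrial ribosome, and Scd2, a fatty acid desaturase (0.67). For Ly6e they were Ech1 (0.83), an enzyme of fatty acid oxidation, Aldh2, an aldehyde dehydrogenase (0.81), and Krt222 (0.78). The members did not run together: r was 0.16 between Ly6a and Ly6d, -0.06 between Ly6a and Ly6e and 0.18 between Ly6d and Ly6e. These values describe 20 libraries from 13 mice of 3 genotypes, which share their genotype, tissue and depth, and the pairs were picked for being highest. Ly6c1 and Ly6c2 had means under 20 CPM over the B-like libraries and were not ranked.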

How the data were processed

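Matrices of UMI counts, deposited by the authors without a filter on barcodes, came from 3′ droplet libraries with 31053 genes and 737280 barcodes each, aligned to GRCm38. The submitters' processing notes name Cell Ranger 2.0.1 and Seurat 2.2.1, while the matrix headers give 3.1.0. In such counting a read that fits more than 1 gene is left out. The Ly6 genes and gene lists were chosen with earlier results of these data known.

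A barcode was kept as a cell when its UMIs passed the 99th percentile of the 3000 largest barcodes divided by 10, when no fewer than 200 genes were detected and mitochondrial UMIs were at most 10%. The threshold of Scrublet marked few cells, so the expected number of highest-scoring cells (0.8% per 1000 cells, 3542 of 87773) was removed. Cells were classed by markers as described above, with at most 2 markers of any list outside the B lineage in plasma-like cells. UMI counts, summed per library and class with at least 20 cells, were tested with edgeR 4.0.16 (quasi-likelihood, TMM, filterByExpr) and Benjamini-Hochberg adjustment over all genes, at a threshold of 0.05. Spleen comparisons were fitted over all spleens, tissues with the mouse and classes with the spleen as a block. Standard errors after ± are approximate: the size of the log2 difference divided by the square root of the F statistic of its test. Members and list genes were named as called, or as at most the 3 most abundant of a list, and the genes most alike by Pearson r among those with a mean of at least 20 CPM. Alternatives were DESeq2 1.42.0, other scaling, filters, cell rules, covariates and left-out libraries. Both tests were tried on counts simulated after B-like spleens, without pairs and with the same spread for every gene. There edgeR kept to a limit on false calls that was set looser than its threshold, and DESeq2 made more false calls than its threshold allows. The tools were thus not held to the same limit. The filter-free edgeR setting was not tried on simulated counts. Python 3.11.15 and R 4.3.3 were used. CPM carry counting error beside the spread between mice. The Ly6a, Ly6d and Ly6e promoters were not used here. A planned contrast within B-like cells is not reported here.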

Additional observations from a re-analysis of the deposited data

Results flagged for a closer look

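In T-like cells of the 5 Eµ-PRMT5 spleens, Ly6a was at 878 CPM in spleen 4 and at most 179 CPM in the others, a gap of 0.721 of the group's range on the log2(CPM + 1) scale. Ly6d was at 706 CPM in the same library and at most 15.03 CPM in the others (0.713 of the range). Both were marked because this gap passed Dixon's 95% critical value for 5 samples. Of 48 groups of 4 or 5 libraries examined (the members other than Ly6c1), 2 were marked (4.17%), and chance marks about 1 in 20 groups. That library had 80 T-like cells, and its B list in T-like cells was at 385 CPM, the highest of the 20 libraries. In the same library Ly6a was at 397 CPM in B-like cells, and droplets held 392 CPM of Ly6a and 661 CPM of Ly6d. The part of B cell transcripts or free RNA in both values was not tested.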

How the results depend on the processing

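Of the counts of Ly6 genes called, 185 stayed the same under other settings, 8 rose and 1 fell, and with 1 library or mouse left out 125 stayed the same and 2 rose. The 19 comparisons of genotype and tissue began at 0 called, so their counts could not fall, and staying at 0 does not show stable differences. With DESeq2, 1 member (Ly6c2) was called in 4 comparisons that had 0 in edgeR: B-like cells between tissues, and plasma-like cells between tissues, in Eµ-PRMT5 against Eµ-TCL1 and in Eµ-PRMT5/TCL1 against Eµ-PRMT5 spleens. On counts simulated after B-like spleens, without pairs and with the same spread for every gene, DESeq2 made more false calls than its threshold allows. Plasma-like sums and paired tissues were not simulated, so how far this holds for these calls is not known. Calls by DESeq2 alone are to be read with care. In the simulation edgeR was held to a limit looser than its threshold. With no filter on low counts 1 was called in the same 3 plasma-like comparisons (Ly6c2) and in myeloid-like cells between tissues (Ly6a, 0.72), a setting not tried on simulated counts that also raised the calls over all genes from 0 to 425 in plasma-like Eµ-PRMT5 against Eµ-TCL1 spleens. Leaving out 1 mouse gave 0 to 1 members called in B-like and in myeloid-like cells between tissues. Library totals, chosen after seeing the data, left 2 of 4 called in plasma-like against B-like cells. Leaving out Eµ-PRMT5 spleen 4, also chosen after seeing the data, changed no call in T-like or myeloid-like against B-like cells, and the other class contrasts do not hold that library. Over all genes in B-like cells, edgeR and DESeq2 called 2 and 800 in Eµ-PRMT5 against Eµ-TCL1, 1 and 24 in Eµ-PRMT5/TCL1 against Eµ-TCL1 and 0 and 136 in Eµ-PRMT5/TCL1 against Eµ-PRMT5 spleens, and 0 and 90 between lymph nodes. Between tissues edgeR called 7 in B-like cells and DESeq2 called 186 higher and 136 lower. In this comparison the tools called 12 and 19 in plasma-like, 0 and 104 in T-like and 79 and 122 in myeloid-like cells. The causes were not tested.

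Some differences of uncalled members changed sign. With sex as a covariate, B-like Ly6a in Eµ-PRMT5 against Eµ-TCL1 became -0.077, B-like Ly6e in Eµ-PRMT5/TCL1 against Eµ-TCL1 0.19 in spleens and -0.083 in lymph nodes, and T-like Ly6d in Eµ-PRMT5 against Eµ-TCL1 -1.10. Between B-like lymph nodes Ly6c2 became 0.21 with doublets kept and Ly6e -0.018 with the stricter marker rule. With no filter B-like Ly6d between tissues became -0.016, and on library totals Ly6e in CD8 against CD4 cells -0.23. With 1 library or mouse left out, B-like Ly6d ranged from -0.52 to 0.27 in Eµ-PRMT5/TCL1 against Eµ-TCL1, from -0.066 to 0.82 in Eµ-PRMT5/TCL1 against Eµ-PRMT5 and from -0.18 to 0.18 between tissues. Between B-like lymph nodes Ly6c2 ranged from -0.80 to 0.49 and Ly6e from -0.052 to 0.14. T-like Ly6d ranged from -1.92 to 2.82 and myeloid-like Ly6a from -2.26 to 1.93 in Eµ-PRMT5 against Eµ-TCL1, the lowest values being without Eµ-PRMT5 spleen 4.

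Deviations from group means in same-numbered libraries had correlations of -0.09 to 0.23 over 12 pairs of spleens (5 over 0.1). Over 3 pairs of lymph nodes they were -0.12 to 0.16 (1 over 0.1). Pairs with different numbers were not set beside these, so the values do not decide whether the numbers pair libraries. With a replicate block 0 members were called in each comparison fitted, and the calls over all genes went from 2 to 36 in B-like and from 0 to 26 in plasma-like Eµ-PRMT5 against Eµ-TCL1 spleens. Under the block Ly6d became 0.079 in B-like Eµ-PRMT5/TCL1 against Eµ-TCL1 spleens and -0.011 in lymph nodes, B-like Ly6e -0.056 in lymph nodes and myeloid-like Ly6a -0.61 in Eµ-PRMT5 against Eµ-TCL1 spleens.

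The genotypes of myeloid-like lymph node cells were not compared, since 1 Eµ-TCL1 node had at least 20 such cells. The replicate block in plasma-like lymph nodes and leaving out a mouse in plasma-like tissues were not run. Ly6c1 rests on few UMIs in each class, which limits its precision.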
